A study of Drosophila melanogaster with 4 samples.

Results

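The Wnt gene cluster around wingless (wg) on chromosome arm 2L of Drosophila melanogaster was examined in a map of Groucho binding. Its members are the Groucho peaks on 2L whose centre lies between 7240000 and 7390000 (FlyBase release 5), a window of 150 kb, and they were chosen by position alone. The window held 26 of the 11165 peaks in the list, and 26 of the 1948 on 2L. The assay was ChIP-seq, in which DNA bound by a protein is precipitated with an antibody and sequenced. The material was white prepupae, the stage at which metamorphosis begins, and no tissue is named in the labels. The 4 libraries are 2 of Groucho ChIP, made with the rabbit polyclonal antibody KW0:GRO, and 2 of input DNA. All 4 came from the strain Y cn bw sp, which carries the visible markers bw[1], cn[1], sp[1] and y[1]. Its other alleles are Rh6[1], lab[R4.2], Gr22d[1], oc[R3.2], MstProx[1], CG33964[R4.2], GstD5[1], Gr22b[1] and LysC[1]. The deposited data are a single peak list, in which each peak has a position and a score from MACS. The score is the authors' own value, on a scale that is not stated. No value belongs to a single library, so there is no spread between replicates, the read depth is unknown, and no difference below was tested.

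Wnt proteins are secreted, lipid-modified ligands that bind Frizzled receptors and, in the canonical branch, stabilise beta-catenin (Armadillo in flies). Groucho is a co-repressor without a DNA-binding domain of its own. Repressors that recognise DNA sequence recruit it, and it joins the Wnt pathway effector TCF (Pangolin) to hold Wnt target genes off where no signal is received. wg encodes the founding Wnt ligand of the fly, which patterns the embryonic segments and the wing margin. Wnt4 encodes a ligand that opposes wg in some tissues and acts with it in others. Wnt6 encodes a ligand with an expression pattern that overlaps that of wg in imaginal discs, and Wnt10 encodes a further, less studied ligand.

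In the RefSeq gene table of the assembly named Release 6, the genes stand on 2L in the order CG13786, Wnt4, wg, lncRNA:CR45304, Wnt6, Wnt10 and ninaC. CG31909 is annotated within Wnt4, and asRNA:CR44063 within Wnt10. The positions of the peaks are on release 5, and no conversion was made. Which peak lies at which of the 4 Wnt genes was therefore not analysed here, and no peak sequence was read.

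The Groucho peaks of the Wnt cluster formed 1 group, bounded on both sides by long stretches in which no peak was called. From the first peak to the last the group spanned 130.7 kb. The stretch before it, towards lower coordinates, was 39.6 kb long, and the one after it was 38.1 kb. Of the 1947 gaps between neighbouring peaks on 2L, 5.80% were at least as long as the first of these stretches and 6.37% at least as long as the second. The longest gap inside the group was 13.0 kb, and 20.7% of the gaps on 2L were at least as long. Among the 50% of the list that scored highest, the longest gap between peaks of the window was 35318 bp. The group thus held together through lower-scoring peaks, and its flanks were not measured in that setting.

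The first peak inside the window, at 7243647 to 7243998, scored 18.57, and the last, at 7373469 to 7374345, scored 25.78. The nearest peak outside the lower edge, at 7203597 to 7204013, scored 12.63, and its centre lay 36195 bp from that edge. The nearest outside the upper edge, at 7412480 to 7413152, scored 23.73, and its centre lay 22816 bp from it. Both edges of the window thus fell in peak-free sequence, and moving either of them by less than these distances outwards leaves the same 26 members.

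**Figure D1:**
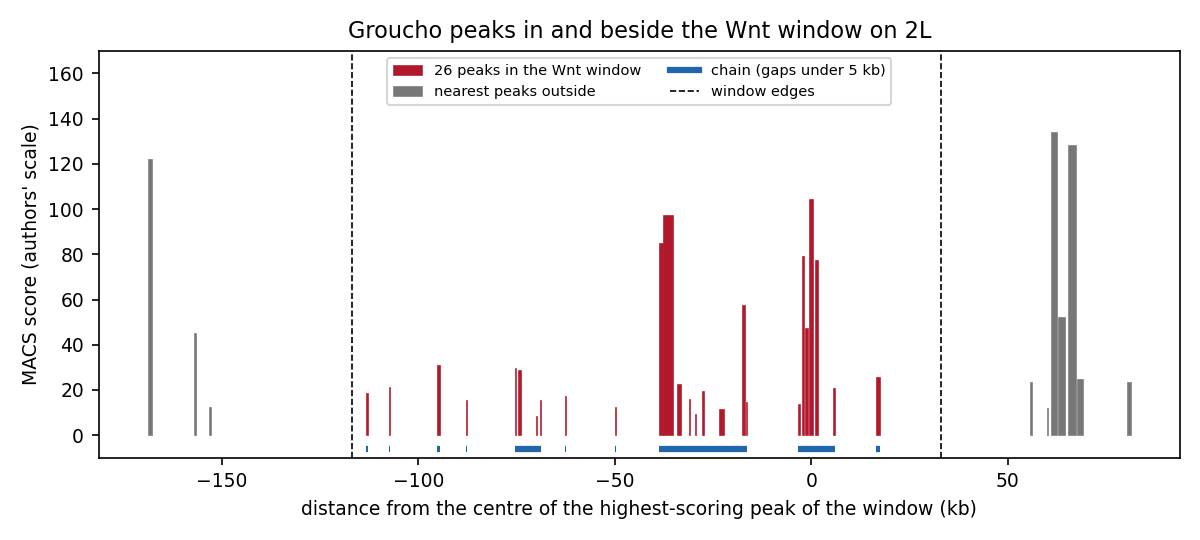
The 26 Groucho peaks of the Wnt window (red) and the nearest peaks outside it (grey), with position as the distance in kb from the centre of the highest-scoring peak of the window, and MACS score as height. Bar width is peak width, blue bars mark chains of peaks less than 5 kb apart and dashed lines the window edges. The 7 highest peaks stand in a stretch of 40.3 kb on the right, and the 10 peaks on the left score at most 30.93.

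The strongest Groucho sites of the cluster lay in 2 places, both in the 75 kb of higher coordinates. The highest-scoring peak, at 7356394 to 7357390, had a score of 104.6 and a width of 997 bp. It stood in a run of 5 peaks, the last 4 of which scored 79.29, 47.33, 104.6 and 77.51 in order of position. These 4 peaks, which begin at 7354444 and end at 7358498, were separated by only 191, 298 and 396 bp. The second highest peak, at 7319194 to 7321776, scored 97.23 and was the widest of the cluster, at 2583 bp. Only 69 bp separated it from the peak ranked next, at 7318242 to 7319124, which scored 84.93. Together this pair spanned 3.54 kb. The centres of the 2 highest peaks of the cluster were 36.4 kb apart. Between these places a further strong peak, at 7339140 to 7339951, scored 57.54.

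Each of these strong sites had counterparts elsewhere on the arm. The highest was the 136th of the 1948 peaks of 2L by score, and 93.0% of the 1922 other peaks on the arm scored lower. The next 2 ranked 154th and 193rd on 2L. The highest score of the arm was 401.26, at a peak outside the cluster.

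Chains of neighbouring peaks were formed by joining those less than 5 kb apart, edge to edge. The 26 peaks fell into 10 chains, and 2 of these were long. The chain from 7318242 to 7340575 held 9 peaks, which covered 33.6% of its span and scored from 9.41 to 97.23. The chain from 7353554 to 7362821 held 6 peaks, which covered 44.3% of its span and scored from 13.9 to 104.6. Together the 2 long chains held 57.7% of the peaks and 75.1% of the summed score in 21.1% of the window. They contained all 7 peaks of the cluster that scored in the highest 25% of 2L. The chains depended on the distance chosen, with 15 chains at 2 kb and 7 at 10 kb. At 2 kb the chain of 9 peaks breaks at its gaps of 2138, 4023 and 4569 bp, and the chain of 6 at its gap of 3948 bp. At 10 kb both long chains keep the same peaks.

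The 8 remaining peaks of the 2 long chains scored from 9.41 to 22.54, and 3 of them were above the median of 18.73 of the other peaks on 2L. In the first chain the peak at 7322763 to 7323616 scored 22.54, and it was followed by peaks scoring 15.91, 9.41, 19.48 and 11.45 at 7325755, 7327264, 7328985 and 7333508. The strong peak that starts at 7339140 had a companion of 14.89, which began 318 bp behind its end. The second chain opened with a peak of 13.9 at 7353554 to 7354110 and closed with one of 20.81 at 7362447 to 7362821. High and low peaks therefore stood side by side in both chains.

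A further chain, from 7281526 to 7288191, held 4 peaks with scores of 29.61, 28.74, 8.4 and 15.56 in order of position. It consisted of 2 close pairs, with gaps of 556 bp and 715 bp inside the pairs and 4010 bp between them. The peak of 8.4 was the lowest of the cluster, and only 4.63% of the other peaks on 2L scored lower. The 7 chains left were single peaks, with no other peak within 5 kb. Their scores were 18.57, 21.37, 30.93, 15.43, 17.3, 12.32 and 25.78, at starts of 7243647, 7249449, 7261677, 7269013, 7294152, 7306850 and 7373469. The single peaks made up 15.7% of the summed score, and 6 of them were in the 75 kb of lower coordinates.

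The 2 ends of the cluster thus differed in layout. The 75 kb of higher coordinates, from 7315001, held 16 peaks with a median score of 24.16 and a median width of 762 bp. The 75 kb of lower coordinates held 10 peaks with a median score of 17.94 and a median width of 296 bp. The median gap was 1218 bp on the higher side and 5960 bp on the lower side. The higher side took 78.0% of the summed score of the window. An unequal split of that kind was common on 2L. Among 82 other windows of 150 kb with at least 10 peaks, the richer side took 74.3% in the median, with quartiles of 62.2% and 85.0%, and 52 of the 82 were less unequal than the Wnt window.

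**Figure D2:**
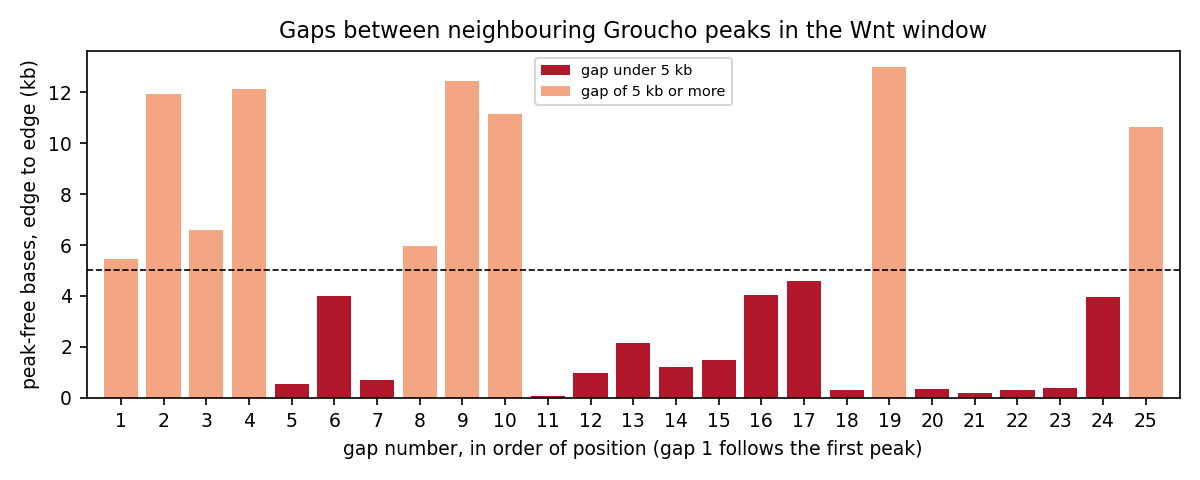
The 25 gaps between neighbouring peaks of the Wnt window in order of position, as peak-free kb from edge to edge, with a dashed line at 5 kb. The 9 gaps of 5 kb or more (light) separate the 10 chains, and 7 of them come before gap 11, where the long chains begin.

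Of the 25 gaps, 9 were under 1 kb, 7 from 1 kb up to 5 kb and 9 at least 5 kb, and 6 of the last were over 10 kb. The shortest was the gap of 69 bp between the peaks of 84.93 and 97.23. The longest, 12978 bp, separated the 2 long chains.

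Peak by peak, the cluster was close to the rest of the arm. The median score was 21.09 in the Wnt window and 18.73 among the other peaks on 2L, and the median widths were 528.5 bp and 449 bp. In the Wnt window, 15 of 26 peaks (57.7%, exact binomial 95% interval 36.9 to 76.6, for counting error only) scored above the median of the other 2L peaks, against 50.1% of all peaks on 2L. With peaks joined across gaps under 1 kb throughout the list, 6 of 17 (35.3%) did, so the side of 50% on which the share lay depended on joining. Each joined peak kept the highest score of its parts. The highest 25% of scores held 7 of the 26 (26.9%, interval 11.6 to 47.8), against 24.9% of all 2L peaks. The lowest 25% held 3 of the 26 (11.5%, interval 2.45 to 30.2), against 24.7%. Scores over 100 were reached by 1 of the 26, against 7.39% on 2L, and widths over 2 kb by 1 of the 26, against 2.26%. Each of the 3 intervals contained the share of the whole arm, and peaks of 1 window are not independent.

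**Figure D3:**
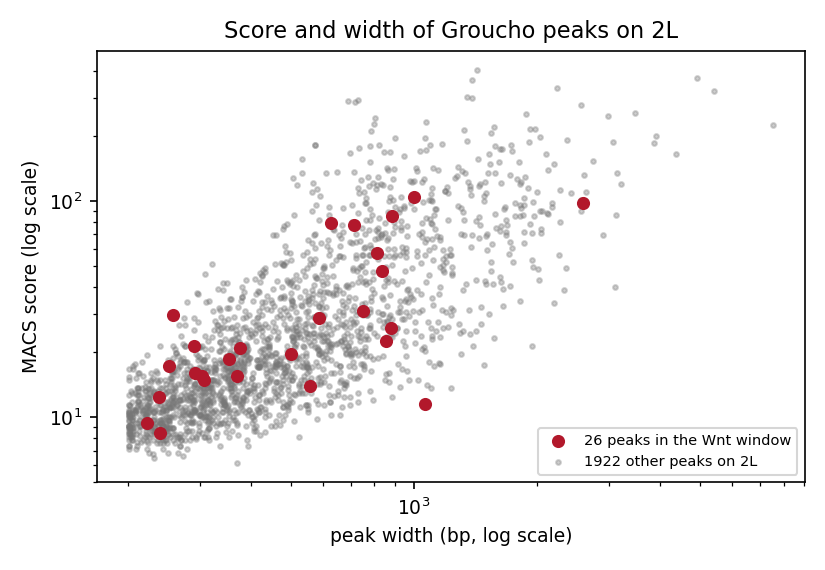
Width (bp) and MACS score, both on log axes, of the 26 peaks in the Wnt window (red) and of the 1922 other peaks on 2L (grey). Most red points lie well within the grey cloud. At its lower edge is 1 wide peak of low score, with a width of 1063 bp and a score of 11.45. At its upper left edge is 1 narrow peak, with a width of 257 bp and a score of 29.61.

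Score and width went together in the cluster as on the rest of the arm. Spearman's rho was 0.646 over the 26 peaks of the Wnt window and 0.788 over the 1922 others, and Pearson's r was 0.657 and 0.664. Both are descriptions across peaks, which share their libraries and caller. A departure from the relation was the peak at 7333508 to 7334570, chosen here after its values were seen. It was the second widest of the cluster, at 1063 bp, and the third lowest in score, at 11.45. None of the 266 other peaks on 2L that were wider than 1 kb scored lower, and their median score was 77.8. In the opposite direction, the peak at 7281526 to 7281782 scored 29.61 at a width of 257 bp, while 473 of the 476 other 2L peaks under 300 bp scored lower and their median was 10.82.

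Compared with other windows of 150 kb on 2L, the Wnt window was rich in Groucho peaks, while its highest score was near the median of the windows. The arm was divided into windows that step out from the Wnt window on both sides, which gave 147 others. The Wnt window had 26 peaks, and the others had 11 in the median, with quartiles of 7 and 18.5. It ranked 14th of 148 by peak number, with 91.2% of the others lower. With only the 50% of the list that scored highest, it had 16 peaks and ranked 5th of 145, level with other windows of the same number. Of the 144 others, 135 (93.8%) were lower. Its density was 173 peaks per Mb, against 86.6 per Mb on the rest of the arm, a ratio of 2.00. Peaks covered 10.8% of the Wnt window and 4.13% of the other windows in the median, which placed it 15th. Its summed score, 900.83, was the 20th, against a median of 346.41. By its highest peak, 104.6, it ranked 74th, beside a median of 103.82 in the others. The ranks describe 1 window chosen for its genes, with earlier results known, and carry no p-value.

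The 5 windows richest in peaks differed from the Wnt window in both number and height. The richest, at 14440001 to 14590000, held 65 peaks with a highest score of 401.26 and 35.1% of its length covered. The window at 490000 to 639999 held 37 peaks, and those at 3490000 to 3639999, 14290001 to 14440000 and 19090001 to 19240000 held 34 each. Their highest scores were 302.67, 362.36, 292.5 and 139.38, all above that of the Wnt window. Among the 33 other windows with at least 20 peaks, 29 had a higher top score than the Wnt window, and the median of their top scores was 161.37. Their summed scores lay on both sides of that of the Wnt window, with 17 higher and 16 lower.

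**Figure D4:**
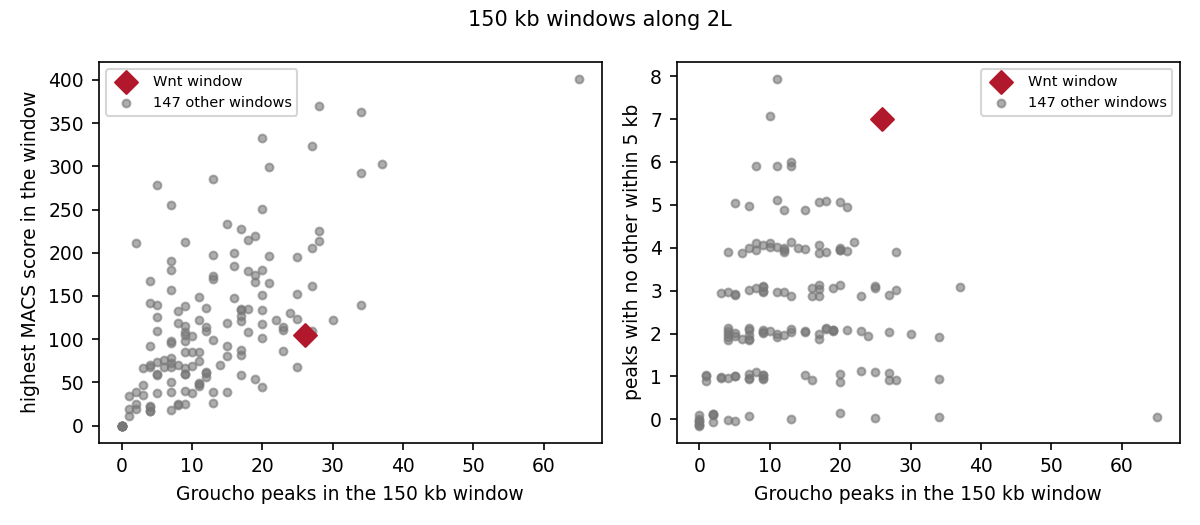
Each point is a window of 150 kb on 2L, with its number of Groucho peaks on the x axis and, on the y axes, its highest MACS score (left) or its number of peaks with no other within 5 kb (right, points shifted slightly so that ties can be seen). The Wnt window (red diamond), with 26 peaks, has a highest score of 104.6, low for so many peaks, and 7 single peaks at this distance, more than in any other window with at least 20 peaks. With a distance of 10 kb, which is not drawn, it has 2.

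The Wnt window also differed from the other windows with at least 20 peaks, which held up to 65, in how its peaks were spread. The count of single peaks and the comparison of windows by longest gap were added after seeing the data. The sets of windows with at least 20 or with 21 to 31 peaks were not planned either. The Wnt window contained 7 single peaks, against 0 to 5 in the 33 other windows with at least 20 peaks, whose median was 2. Over all 148 windows, 1 other had more single peaks and 1 had as many. The count rested on the distance chosen. With no other peak within 10 kb in place of 5 kb, a setting also chosen after seeing the data, 2 peaks of the Wnt window were single. The share of other windows with fewer was then 62.6%, against 98.6% at 5 kb. Per peak the difference was smaller. Single peaks were 7 of the 26 in the Wnt window (26.9%, exact binomial 95% interval 11.6 to 47.8), against 18.9% of all peaks on 2L, a share that the interval contained. The number of chains, 10, was exceeded in 1 of the 33 windows, and their median was 7. The longest gap between neighbouring peaks of the Wnt window, 12978 bp, was shorter than in 30 of the 33, which had a median of 27571 bp. This measure leaves out peak-free sequence at the window edges. In the Wnt window the stretch from the end of the last peak, 7374345, to the edge at 7390000 was longer than that gap. The median gap, 3948 bp, was longer than in 30 of the 33, whose median was 1665 bp. Among the 20 other windows with 21 to 31 peaks, single peaks numbered 0 to 5. Of these 20, 19 had a longer longest gap, 19 had a shorter median gap and 1 had more chains. Over all windows with at least 2 peaks, 10.2% of the others had a shorter longest gap than the Wnt window. When only the higher-scoring 50% of the list was kept, the longest gap in the Wnt window was 35318 bp, and 45.9% of the other windows had a shorter one. The median gap and the windows with at least 20 peaks were not examined in that setting.

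At least 4 other peaks lay within 10 kb of 15 of the 26 peaks (57.7%, exact binomial 95% interval 36.9 to 76.6). The share of all peaks on 2L was 43.9%, which the interval contained. Of these 15 peaks, 13 were in the 2 long chains, where 2 other peaks had fewer neighbours, and 2 were in the chain from 7281526 to 7288191. The peak at 7327264, with a score of 9.41, had 6 others within that distance, while the peaks at 7306850 and 7373469 had 0.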

How the data were processed

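The titles of the libraries give 2 groups, Groucho ChIP (2) and input DNA (2). Per the file headers, the peak list is on FlyBase release 5 and its source column names MACS. The submitters' processing notes name MACS2, BWA, the build BDGP5 and 2 versions of CASAVA, 1.7.0.3 and 1.7.0.2, with no role or order. Not given in the sources used here are the peak threshold and any pooling of libraries. Scores are as deposited by the authors, from their caller, and were used only within the list. Positions are 1-based, as in the deposited file.

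Members are peaks with their centre in the window. Gaps are counted edge to edge, and covered bases are cut at the window edges. The longest and the median gap of a window leave out the peak-free sequence between its outer peaks and its edges. Other windows on 2L lie wholly between its first and last peak. Peaks were named by score (5), width (3) and position, and windows by peak number (5). Further peaks were named after their values were seen. The window and the lists were chosen with earlier results of these data known. Nothing was tested, because no value belongs to a library. The counting of windows was tested on simulated lists. Distances to genes and sequences, which need a genome or annotation of release 5, were not analysed here. Python 3.11.15 with numpy 2.4.6, pandas 2.3.3, scipy 1.17.1 and matplotlib 3.10.9 were used.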

Additional observations from a re-analysis of the deposited data

How the results depend on the processing

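Of 72 alternative values, 59 stayed within the counting interval of the reported value or, for counts and gaps, within 1.5 times it. The number of peaks, 26, became 16 among the 50% with the highest scores, 17 after joining peaks less than 1 kb apart and 15 in a window of 75 kb, as each leaves fewer peaks. The share of windows with fewer peaks, 91.2%, was 84.5% over the 4 large autosome arms and 79.2% for windows of 300 kb. By highest score it was 67.9% for windows of 75 kb, against 50.3%. By summed score it was 77.6% after joining, in which each joined peak keeps only the highest score of its parts, against 87.1%. The share of peaks above the median of the other 2L peaks was 35.3% after joining, against 57.7%, so the side of 50% on which it lies depends on joining. The longest gap was 35318 bp among the 50% with the highest scores, and 45.9% of other windows then had a shorter one. The comparisons of windows by longest gap and by single peaks, and the settings that follow, were chosen after seeing the data. With 10 kb in place of 5 kb, 2 peaks were single, and 62.6% of the windows had fewer. With 2 kb the share was 92.5%, against 98.6%. The cause of the changes in shares was not tested. No paired analysis was possible because the list holds no value per library, and no replicate could be left out for the same reason. Since the depth is unknown, sequence without a called peak may still hold Groucho.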

Other observations

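The groups of peaks beside the Wnt cluster held higher sites than any in it. After the peak-free stretch on the side of higher coordinates, peaks at 7417990 to 7419318 and 7422292 to 7424159 scored 134.22 and 128.41. On the other side a peak at 7188037 to 7189023 scored 121.96. The adjacent window of higher coordinates held 17 peaks and that of lower coordinates 11, against 26 in the Wnt window.

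The wide, low-scoring peak at 7333508 to 7334570 also stood out in the whole list. Of the 1558 other peaks wider than 1 kb, 1 scored lower than its 11.45, at 10.58. The narrow peak at 7281526 to 7281782, with a score of 29.61, was exceeded by 9 of the 2698 other peaks under 300 bp in the list.

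Cut at every peak-free stretch longer than the longest gap in the Wnt cluster, 2L gave 404 groups of peaks. Of these, 41 were bounded on both sides by stretches of at least 38.1 kb, and 2 of the 41, the Wnt cluster among them, held 26 peaks or more. This way of dividing the arm was built on the Wnt cluster itself and describes it only. Cut at stretches of at least 15, 20 or 30 kb, 2L gave 356, 271 and 168 groups. By peak number the Wnt cluster then ranked 9th, 13th and 25th. At least as many peaks were held by 8, 13 and 25 other groups.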
